A study of Mus musculus with 4 samples.

Results

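The 9 genes Spo11, Prdm9, Mei1, Dmc1, Meiob, Tex15, Msh4, Msh5 and Mlh3 carry out meiotic recombination, and they were found by symbol among the 22808 genes of a mouse testis RNA-seq table. All 9 were in the table. The study compared testes of Piwil1-/- mice, which lack both copies of the gene for the PIWI protein PIWIL1 (MIWI), with testes of Piwil1+/- mice, which keep 1 copy, both at postnatal day 23. Each genotype was 1 library of total RNA, depleted of ribosomal RNA and made into a directional library, and the labels used here do not say how the alleles were made, the strain of these mice or how many animals went into a library. Small RNAs bound to PIWIL1 in adult wild-type testis were also sequenced and are not used here. Since each genotype is a single library, no difference can be set against the spread between animals, and p-values are not given.

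In meiotic prophase the spermatocyte cuts its own DNA, repairs the cuts on the homologous chromosome and turns some of the repairs into crossovers, which hold the homologues together until they separate. PRDM9, a histone methyltransferase with DNA-binding zinc fingers, marks the hotspots, and SPO11, a topoisomerase-like protein that needs MEI1, makes the breaks. DMC1, the meiosis-specific recombinase, carries out strand exchange with help from MEIOB, which binds single-stranded DNA, and TEX15, which is needed to load the recombinases. MSH4 and MSH5 form a clamp that stabilises the joined strands, and MLH3 is an endonuclease subunit that resolves them into crossovers.

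Values are RPKM, reads per kilobase of gene and per 1000000 reads of the library. The gene lengths used are not given and may be coding lengths for many genes. Comparisons of level between genes hold only as far as these lengths suit each gene. Genotypes are compared as log2 ratios, meaning log2 (RPKM + 1) in Piwil1-/- less the same in Piwil1+/-. Adding 1 RPKM makes the ratios of low genes too small. Genes with 1 RPKM or more in either library were tested, 9951 in all, and all 9 recombination genes passed. Intervals are 95% intervals that cover counting error only. They take reads as independent, which copies of a molecule made by PCR are not, so they may be too narrow. They rest on the smallest whole read numbers that give the RPKM values in libraries of 100254357 reads for Piwil1-/- and 104014686 reads for Piwil1+/-.

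The labels and the tissue were checked first. Piwil1 (chromosome 5, 128736071 to 128755474, mm10) was listed at 0 RPKM in Piwil1-/- testis, against 26.2 RPKM in Piwil1+/- testis. Germ cells, including those in meiosis, were well represented in both libraries. Ddx4, a germ cell helicase, was at 160.4 RPKM in Piwil1-/- and 158.6 RPKM in Piwil1+/-. Sycp3, of the chromosome axis, was at 185 and 163 RPKM in Piwil1-/- and Piwil1+/- testis. In a whole testis, fewer cells of a type and less RNA per cell cannot be told apart.

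The recombination genes were at nearly the same level in both genotypes. Their median log2 ratio was 0.02, against 0.01 over all genes tested. None was 2-fold lower, where 1.96% of all genes were, and none 2-fold higher, where 0.231% were. Of the 9, 8 (88.9%) lay within 1.2-fold, against 78.9% of all genes. For 6 of the 9, the RPKM in Piwil1-/- was 0.996 to 1.03 times that in Piwil1+/-. That range was taken from these values, and the share of all genes inside it was not computed. Mei1 alone was at least 1.2-fold higher on the log2 (RPKM + 1) scale, 1 of 9 genes against 8.40% of all genes, and none was at least 1.2-fold lower, against 12.7% of all genes. The log2 ratio was above 0 for 8 of the 9, where it was for 51.2% of all genes. After rescaling to 13 genes of the chromosome axis and synaptonemal complex, called axis genes below, it was above 0 for 3 of the 9. The same rescaling took the median of all genes to -0.08 and that of the 9 to -0.06. The share of all genes above 0 was not computed for it. In the annotation Spo11 and Msh5 overlap a long noncoding RNA gene, Meiob overlaps Hagh, and Prdm9, Msh4 and Mlh3 hold a pseudogene. The sources used here do not say whether strand was used in counting, so reads of such pairs cannot be told apart.

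**Figure D1:**
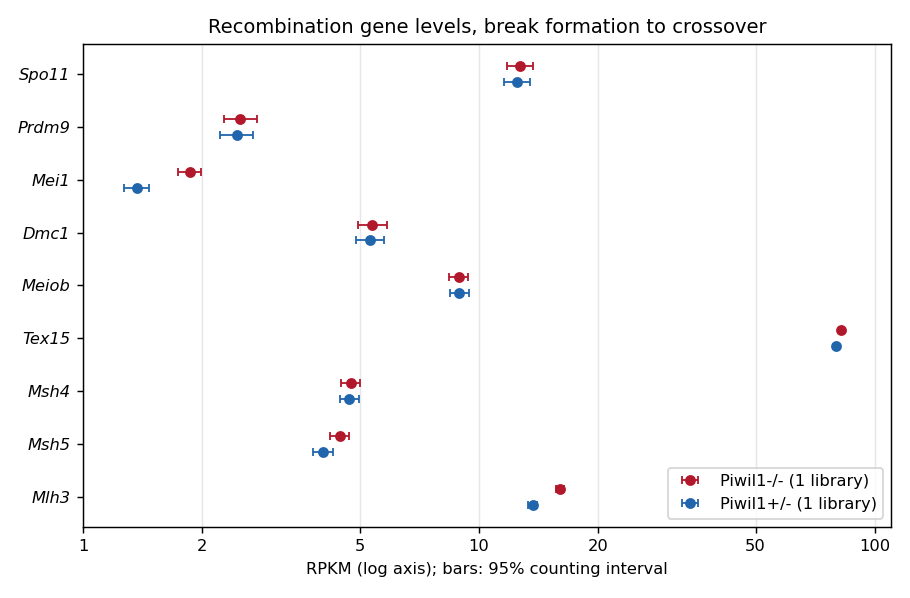
Level of each recombination gene, in RPKM on a log axis, in the Piwil1-/- library (red) and the Piwil1+/- library (blue); bars are 95% counting intervals, and genes run from break formation at the top to crossover at the bottom. Levels span 1.86 to 82.1 RPKM in Piwil1-/- and 1.37 to 80.0 RPKM in Piwil1+/-, while the 2 colours of a gene lie close together except for Mei1, Mlh3 and, by less, Msh5.

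The genes of break formation differed widely in level. Spo11 (chromosome 2, bases 172977379 to 172993576) was at 12.7 RPKM in Piwil1-/- testis and 12.5 RPKM in Piwil1+/- testis. Its ratio of 1.02 had an interval of 0.916 to 1.13, from at least 718 reads in Piwil1-/- and 733 in Piwil1+/-. Prdm9 (chromosome 17, bases 15543072 to 15564374) was lower per length, at 2.497 RPKM in Piwil1-/- and 2.45 RPKM in Piwil1+/- testis. Its ratio was also 1.02, with an interval of 0.891 to 1.17. The breakmaker and the gene that places the breaks had intervals that hold 1, and differences inside these intervals cannot be told from counting error here. The intervals rest on the smallest possible read numbers, so they may be wider than the full reads would give.

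Mei1 (chromosome 15, bases 82070074 to 82126817), the lowest of the 9, showed the widest difference. It was at 1.86 RPKM in Piwil1-/- testis and 1.37 RPKM in Piwil1+/- testis, a ratio of 1.36 with an interval of 1.23 to 1.503 from at least 926 and 706 reads in Piwil1-/- and Piwil1+/-. Its log2 ratio of 0.27 exceeded that of 92.1% of all genes tested. Rescaling to the axis genes brought it to 0.21 and ended the 1.2-fold call.

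The strand exchange genes matched closely between genotypes. Dmc1 (chromosome 15, bases 79561497 to 79605159) was at 5.38 RPKM in Piwil1-/- and 5.31 RPKM in Piwil1+/- testis, a ratio of 1.01 (interval 0.900 to 1.14). Meiob (chromosome 17, bases 24804301 to 24839788) was at 8.89 RPKM in Piwil1-/- and 8.93 RPKM in Piwil1+/- testis, a ratio of 0.996 (0.922 to 1.08), and is the single member with a log2 ratio below 0. Both intervals hold 1. Tex15 (chromosome 8, bases 33516689 to 33592503) stood far above the others, at 82.1 RPKM in Piwil1-/- and 80.0 RPKM in Piwil1+/- testis. Its level was above that of 96.3% of all genes tested. At least 112032 and 113252 reads in Piwil1-/- and Piwil1+/- set its ratio of 1.03 within 1.018 to 1.035, the narrowest interval of the 9.

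The crossover genes were level or slightly higher in Piwil1-/- testis. Msh4 (chromosome 3, bases 153857141 to 153906138) was at 4.74 RPKM in Piwil1-/- and 4.71 RPKM in Piwil1+/- testis (ratio 1.01, interval 0.931 to 1.09). Its partner Msh5 (chromosome 17, bases 35028605 to 35046997) was at 4.45 RPKM in Piwil1-/- and 4.04 RPKM in Piwil1+/- testis (ratio 1.10, 1.02 to 1.19). The 2 subunits of this clamp were thus at similar levels, with Msh4 at 1.07 times Msh5 in Piwil1-/- and 1.17 times Msh5 in Piwil1+/-. Mlh3 (chromosome 12, bases 85234466 to 85270647) was at 16.04 RPKM in Piwil1-/- and 13.7 RPKM in Piwil1+/- testis. Its ratio of 1.17 (1.13 to 1.22), from at least 6813 and 6022 reads in Piwil1-/- and Piwil1+/-, lay just under the 1.2-fold line, with a log2 ratio of 0.22 that exceeded 88.6% of all genes.

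**Figure D2:**
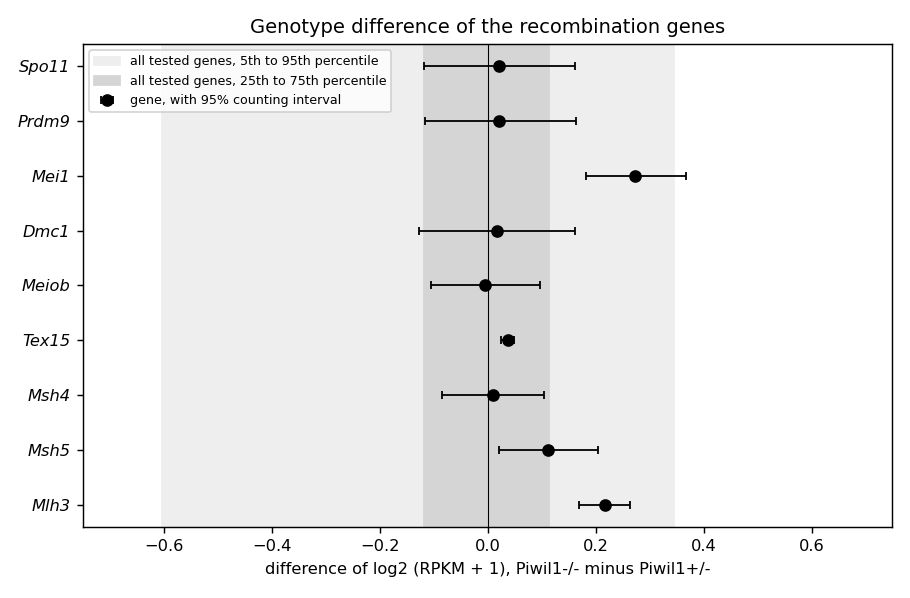
Difference of log2 (RPKM + 1), Piwil1-/- minus Piwil1+/-, for each recombination gene (points, with 95% counting intervals), over the range of all 9951 genes tested (light grey, 5th to 95th percentile, -0.60 to 0.34; dark grey, 25th to 75th percentile, -0.12 to 0.11). The 9 points lie inside the light band, and Mei1 and Mlh3 lie clear of the dark one.

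The counting interval lay above 1 for 4 of the 9 genes, Mei1, Mlh3, Msh5 and Tex15, and held 1 for the other 5. Across 9938 genes with read numbers it lay above 1 for 27.4% and below 1 for 26.9%. An interval off 1 was thus common among all genes, and it leaves out the spread between animals. All these intervals rest on the smallest read numbers, and more reads would narrow them.

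The order of levels was the same in both libraries, with all 9 genes at the same rank. It ran from Tex15 through Mlh3, Spo11, Meiob, Dmc1, Msh4, Msh5 and Prdm9 to Mei1. Tex15 was 5.12 times Mlh3, the next gene, in Piwil1-/- and 5.85 times in Piwil1+/-, and 44.1 times Mei1 in Piwil1-/- and 58.5 times in Piwil1+/-. Among neighbours in that order, the counting intervals of Dmc1 and Msh4 overlapped in both libraries, those of Msh4 and Msh5 overlapped in Piwil1-/-, and those of Mlh3 and Spo11 overlapped in Piwil1+/-. Spread between animals is unknown, so the order beyond these pairs describes the libraries.

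Windows at transcript starts are shown for 3 members, the pair whose windows held a motif of E2F factors and Mei1, the member with the widest difference. The RefSeq table of GRCm38.p6 windows, each from 250 bases before to 50 after a transcript start, had 1 window each for Msh4, Dmc1, Mei1 and Msh5 and 2 each for Mlh3 and Prdm9. E2F6, a repressor of germline genes in somatic cells, and other E2F factors recognise the letters GGCGGGAA. Capitals mark that motif on either strand in Prdm9 and Msh5, and a MYB motif (AACNGTC, searched for because A-MYB is a regulator of male meiosis) in Mei1. The Mei1 window is at an internal transcript start, 12402 bases inside the annotated gene, while the starts in the Prdm9 and Msh5 windows lie 20 and 375 bases inside their genes.
Prdm9, chr17:15564305-15564604, minus strand: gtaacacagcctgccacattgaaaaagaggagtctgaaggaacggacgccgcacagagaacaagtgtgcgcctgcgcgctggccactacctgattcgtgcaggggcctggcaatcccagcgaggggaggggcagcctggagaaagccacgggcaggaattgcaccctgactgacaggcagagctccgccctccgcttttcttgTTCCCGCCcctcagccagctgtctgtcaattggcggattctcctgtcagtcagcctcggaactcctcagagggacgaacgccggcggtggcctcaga
Msh5, chr17:35046573-35046872, minus strand: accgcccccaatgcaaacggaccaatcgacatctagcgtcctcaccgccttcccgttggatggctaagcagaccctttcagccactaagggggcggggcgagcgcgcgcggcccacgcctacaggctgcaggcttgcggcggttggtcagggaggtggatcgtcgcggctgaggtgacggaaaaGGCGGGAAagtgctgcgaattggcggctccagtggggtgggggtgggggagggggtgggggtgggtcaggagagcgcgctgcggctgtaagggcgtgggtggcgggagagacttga
Mei1, chr15:82082226-82082525, plus strand: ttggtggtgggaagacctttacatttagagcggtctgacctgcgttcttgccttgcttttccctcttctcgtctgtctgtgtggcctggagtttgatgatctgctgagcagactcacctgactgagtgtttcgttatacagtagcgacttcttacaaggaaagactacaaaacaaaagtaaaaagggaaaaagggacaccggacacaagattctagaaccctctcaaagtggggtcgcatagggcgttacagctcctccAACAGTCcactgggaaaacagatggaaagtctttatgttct

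The E2F letters stood in 2 of the 8 windows, which belong to 6 members, and in 2.19% of all 32851 windows. The motifs were chosen after these windows were seen and the 2 Mlh3 windows overlap, so the shares here cannot measure enrichment. The E2F letters lay 66 bases before the start in Msh5 and 47 bases before it in Prdm9. The MYB letters stood in 1 of the 8, that of Mei1, and in 8.01% of all windows. The E-box CACGTG (7.15% of all windows) and the NRF1 motif, GCGCA directly followed by TGCGC (0.971%), stood in none of the 8, and no motif overlapped another. Base composition varied, with a GC share from 43.3% in Msh4 to 69.0% in Dmc1, against a median of 52.67% over all windows. The windows of Msh4 and the Prdm9 window not shown are, like that of Mei1, at internal starts. These starts lie 1247 bases inside the gene for Msh4 and 1043 for Prdm9. The observed over expected CpG ratio was 1.14 and 1.10 in the Mlh3 windows, 0.855 in Msh5, 0.631 and 0.353 in the shown and the other Prdm9 window, 0.571 in Dmc1, 0.491 in Mei1 and 0.436 in Msh4, against a median of 0.384 over all windows. These matches describe the letters and were not tested for binding.

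The wider recombination pathway was followed in 69 other genes, of which 62 were found and 54 passed the level filter. Of the 54, 47 (87.0%) lay within 1.2-fold, against 78.9% of all genes, and none passed 2-fold, where 1.96% of all genes were lower and 0.231% higher. The median log2 ratio was 0.09, and 41 of the 54 had a log2 ratio above 0, against 51.2% of all genes. Rescaling to the axis genes brought that median to 0.0054 and the median of all genes to -0.08. The counts that follow are without rescaling unless stated. At least 1.2-fold higher in Piwil1-/- were 6 genes, 11.1% of the 54 against 8.40% of all genes, and at least 1.2-fold lower was 1, 1.85% against 12.7% of all genes. The lower count was 2 with either smaller pseudocount, with rescaling to the median of all genes and with a trimmed mean, and 3 after rescaling to the axis genes.

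In break formation, 3 of the 9 tested genes were at least 1.2-fold higher, against 8.40% of all genes, and none lower, against 12.7%. Besides Mei1 these were Iho1 (listed under its older name Ccdc36), which promotes break formation on the chromosome axis, and Zcwpw1, a reader of the histone marks that PRDM9 writes. Iho1 was at 9.06 RPKM in Piwil1-/- and 5.56 RPKM in Piwil1+/- testis. Its ratio was 1.63 (interval 1.504 to 1.77) and its log2 ratio 0.62. Of the 3, Iho1 alone stayed past 1.2-fold after rescaling to the axis genes. Zcwpw1 was at 22.7 RPKM in Piwil1-/- and 18.1 RPKM in Piwil1+/- (ratio 1.26, 1.21 to 1.31), a 1.2-fold call that ends, like that of Rpa2 below, after rescaling to the axis genes. Prdm9 was thus at 0.110 times Zcwpw1 in Piwil1-/- and 0.135 times in Piwil1+/-. The list also held its most abundant gene, Morc2b, at 98.9 RPKM in Piwil1-/- and 96.7 RPKM in Piwil1+/-, and Ankrd31, a regulator of breaks, with the lowest log2 ratio at -0.04. SPO11's partner Top6bl, listed as Gm960, and the break factors Rec114 and Mei4 were below 1 RPKM in both libraries, with Rec114 at 0.536 RPKM in Piwil1-/- and 0.393 RPKM in Piwil1+/- from at least 21 and 16 reads, and Mei4 at 0.431 RPKM in Piwil1-/- and 0.397 RPKM in Piwil1+/-.

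**Figure D3:**
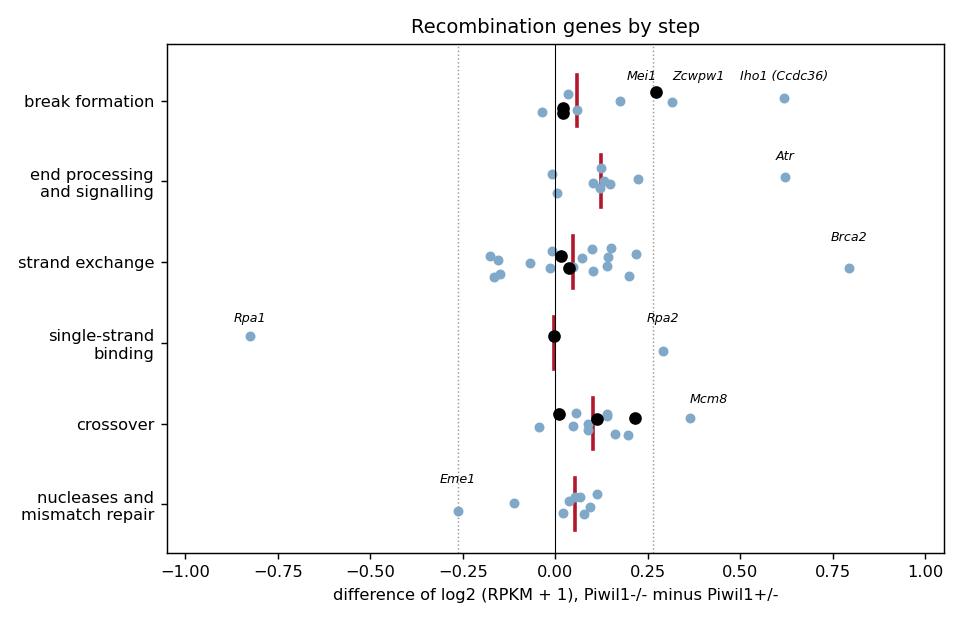
Difference of log2 (RPKM + 1), Piwil1-/- minus Piwil1+/-, for the tested genes of each recombination step (points; black, the 9 genes described here; blue, other genes; red bars, list medians; dotted lines, 1.2-fold). Points gather between the dotted lines, with Brca2, Atr and Iho1 to the right and Rpa1 to the left; horizontal position is data and vertical scatter within a row is not.

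Among genes of end processing and signalling, 1 of 9 was at least 1.2-fold higher, against 8.40% of all genes, and none lower, against 12.7%. Atr, the kinase that responds to single-stranded DNA and to unpaired chromosomes, was at 193 RPKM in Piwil1-/- and 125 RPKM in Piwil1+/- testis, a ratio of 1.54 (1.53 to 1.55) and a log2 ratio of 0.62. It was the most abundant gene of its list in both libraries, and Dna2, a nuclease, the least, at 1.01 and 1.02 RPKM in Piwil1-/- and Piwil1+/-. Atr, Brca2, Iho1 and Zcwpw1 each overlap other annotated genes, Atr and Brca2 3 each, with the limit on strand given above. The list median was 0.12.

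Among 19 strand exchange genes, 1 was at least 1.2-fold higher, against 8.40% of all genes, and none lower, against 12.7%. Brca2, which loads the recombinases, was at 29.5 RPKM in Piwil1-/- and 16.6 RPKM in Piwil1+/- testis, a ratio of 1.78 (1.70 to 1.86) and the highest log2 ratio of the pathway at 0.79. Of the 19 genes, 12 had a log2 ratio above 0, where 51.2% of all genes did. In the other lists, 8 of 9 break formation, 8 of 9 end processing and 13 of 14 crossover genes were above 0. So were 7 of 9 nuclease and mismatch repair genes and 1 of 3 single-strand binding genes. Psmc3ip (HOP2) and Mnd1, which form a cofactor of DMC1, were at unequal levels. Psmc3ip was at 31.2 RPKM in Piwil1-/- and 31.5 RPKM in Piwil1+/-, and Mnd1 at 1.69 RPKM in Piwil1-/- and 2.02 RPKM in Piwil1+/- (ratio 0.838, interval 0.642 to 1.09). Hsf2bp, a meiotic binding partner of BRCA2, had a ratio of 0.994 (0.948 to 1.04), and Rad51ap1, a strand exchange accessory gene, had the lowest log2 ratio at -0.18. The lowest level was that of Xrcc3, a recombinase paralog, at 0.305 RPKM in Piwil1-/- and 0.294 RPKM in Piwil1+/-.

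MEIOB works beside RPA, the general single-strand binding complex, and there the genes parted. Rpa1, the large subunit, was at 28.1 RPKM in Piwil1-/- and 50.5 RPKM in Piwil1+/- testis, a ratio of 0.556 (0.543 to 0.569). Its log2 ratio of -0.83 was the lowest of the pathway and lay above that of 2.97% of all genes. Rpa2 was at 13.9995 RPKM in Piwil1-/- and 11.3 RPKM in Piwil1+/- (ratio 1.24, 1.11 to 1.39), while Meiob was level. Rpa1 overlaps Smyd4 in the annotation, with the same limit on strand, and Rpa3 was the lowest of the list at 0.273 RPKM in Piwil1-/- and 0.210 RPKM in Piwil1+/-.

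Of 14 crossover genes, 1 was at least 1.2-fold higher, against 8.40% of all genes, and none lower, against 12.7%. Mcm8, a helicase, was at 3.91 RPKM in Piwil1-/- and 2.81 RPKM in Piwil1+/- (ratio 1.39, 1.14 to 1.69), with the highest log2 ratio of the list at 0.36. Hfm1, the meiotic helicase that acts with MSH4 and MSH5, was the most abundant, at 35.8 RPKM in Piwil1-/- and 32.4 RPKM in Piwil1+/- (ratio 1.10, 1.08 to 1.13). Tex11, an X-linked crossover factor, had a ratio of 1.12 (0.998 to 1.25), and Prr19 the lowest log2 ratio at -0.04. Mcm9, a helicase, had the lowest level at 2.31 RPKM in Piwil1-/- and 2.11 RPKM in Piwil1+/-. None of 9 tested nuclease and mismatch repair genes was past 1.2-fold, where 8.40% of all genes were higher and 12.7% lower. These 9 ran from Eme1 at -0.26 to Mus81 at 0.11 on the log2 scale. Eme1, a nuclease subunit, lay just inside the line and passed it under 5 of the 7 other settings tried. It was at 1.11 RPKM in Piwil1-/- and 1.53 RPKM in Piwil1+/- testis, a ratio of 0.725 (0.599 to 0.876). Slx4, a nuclease scaffold, was the most abundant at 63.5 RPKM in Piwil1-/- and 68.7 RPKM in Piwil1+/-, and Slx1b, too low to be tested, the least at 0.212 RPKM in Piwil1-/- and 0.111 RPKM in Piwil1+/-.

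Marker lists place these values in the testis. The median log2 ratio was 0.10 over the 13 axis genes of meiotic prophase, the stage in which recombination takes place. Timing of single genes within prophase cannot be read from these libraries. The axis list includes genes of the centre of the synaptonemal complex, such as Syce2. Sycp3 was highest at 0.18 and Syce2 lowest at -0.23. The median was 0.02 over 5 tested genes of the spermatogonial list (Stra8 at 0.09, Uchl1 at -0.08). Ddx4, the germ cell helicase above, set that median, and it is not specific to spermatogonia. Zbtb16, Gfra1, Sohlh1 and Nanos3 of that list were below 1 RPKM in both libraries and not tested. The median was -0.13 over 9 late pachytene genes, Piwil1 included, with Ybx2 highest at 0.43. Spermatid lists were lower in Piwil1-/-, with medians of -0.54 over 9 round spermatid genes and -1.41 over 7 elongating spermatid genes. In the round list the values ran from Tssk2 at -1.34 to Crem at -0.28, and in the elongating list from Cabs1 at -2.47 to Odf2 at -0.27. Prm1 and Tnp1, also of the elongating list, were listed at 0 in Piwil1-/- and below 1 RPKM in Piwil1+/-, so they were not tested. Prm2 was at 0 RPKM in Piwil1-/- and 1.42 RPKM in Piwil1+/-, and Tnp2 at 0.197 RPKM in Piwil1-/- and 2.25 RPKM in Piwil1+/-.

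In the somatic lists 14 of the 21 genes were tested. None of the 14 was at least 1.2-fold higher, against 8.40% of all genes, and 3 were at least 1.2-fold lower, against 12.7% of all genes. These were Cyp11a1, Cyp17a1 and Actg2. The medians were 0.07 over 4 Sertoli genes (Clu at 0.0044, Cldn11 at 0.15), -0.22 over 4 Leydig genes (Cyp11a1 at -0.31, Star at 0.06), 0.03 over 4 peritubular genes (Actg2 at -2.20, Acta2 at 0.14) and -0.02 over 2 leukocyte and endothelial genes (Adgre1 and Cdh5, both at -0.02). The other somatic genes were below 1 RPKM in both libraries and left out of these medians. Their log2 ratios were 0.0017 for Sox9, -0.17 for Gata4 and 0.07 for Amh of the Sertoli list and 0.08 for Insl3 of the Leydig list. In the leukocyte and endothelial list they were 0.10 for Ptprc, 0.08 for Cd68 and 0.06 for Pecam1. The summed level of the axis list was 1155 RPKM in Piwil1-/- and 1083 RPKM in Piwil1+/-. This sum covers all 14 genes of the list, with Syce3, which was below 1 RPKM in both libraries and not among the 13. The sum of the 9 recombination genes was 139 RPKM in Piwil1-/- and 133 RPKM in Piwil1+/-. Of this, Tex15 made 82.1 RPKM in Piwil1-/- and 80.0 RPKM in Piwil1+/-. The part of cell makeup in the differences of single genes was not tested.

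**Figure D4:**
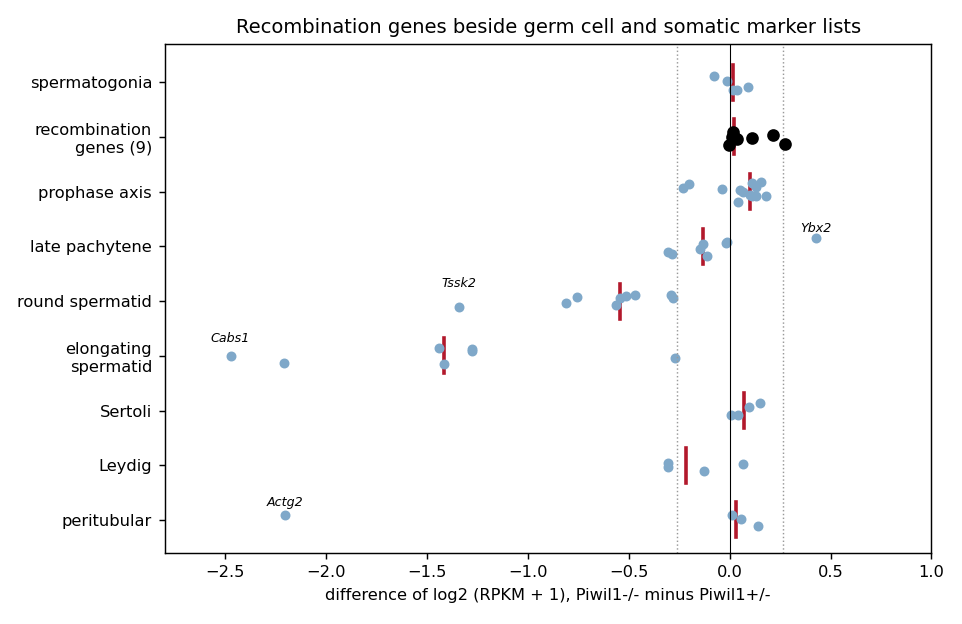
Difference of log2 (RPKM + 1), Piwil1-/- minus Piwil1+/-, for the 9 recombination genes (black) and for marker genes of germ cell stages and somatic cells (blue; red bars, list medians; dotted lines, 1.2-fold). The recombination genes lie from just below 0 to 0.27, the spermatid lists to their left; Piwil1, at -4.77 in the late pachytene list, lies outside the axis.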

How the data were processed

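Testis RNA of 1 Piwil1-/- and 1 Piwil1+/- library was grouped by the genotypes in the labels. Per the file headers, the authors deposited RPKM for 22808 genes. STAR, Bowtie and mm10 are named in the submitters' processing notes; how reads were counted, on which annotation and whether by strand is not given in the sources used here. Symbols were matched for 22444 genes through a gene name table and older names through RefSeq synonyms. Coordinates are those of RefSeq genes in GRCm38.p6.

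Log2 ratios used a pseudocount of 1 RPKM and a minimum of 1 RPKM in either library. The ratio of library totals was read from 491 low genes at 1 common ratio, and the totals from 32 genes whose RefSeq span, under 1500 bp, was their length. The smallest length giving whole reads in both libraries, within 0.0001 reads, gave read numbers for 99.9% of tested genes, and 62.2% of these lengths are multiples of 3, so RPKM may rest on coding lengths for many genes. Intervals are exact (Clopper-Pearson for ratios, Poisson for levels). The steps were tested on simulated data. Python 3.11.15 with scipy 1.17.1 was used.

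The members and lists were chosen with earlier results of these data known. Genes named are the 9 members, Piwil1, fixed partners of the members, pathway genes past 1.2-fold, and the extremes in level or log2 ratio of each list; other genes were chosen after their values were seen. Not found were Zcwpw2, Firrm, Spata22, Spo16, Rnf212b, Redic1 and Hrob, which are not analysed here. Some genes of the pathway were left out of the lists and are not reported here. Promoter motifs were chosen after the windows were seen. The small RNA libraries were not used.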

Additional observations from a re-analysis of the deposited data

How the results depend on the processing

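Alternatives were pseudocounts of 0.1 and 0.01 RPKM, no level filter, and a minimum of 5 RPKM. Others were rescaling to a median log2 ratio of 0, by a trimmed mean or to the median of the axis genes. The median of the 9 recombination genes ranged from -0.06 to 0.03, and no member passed 2-fold in any of them. Rescaling to the axis genes removed 0.10 on the log2 scale and took the median of all genes to -0.08. Such rescaling left 0 members at least 1.2-fold higher, against 5.15% of all genes, and 3 above 0 (Mei1, Msh5 and Mlh3). It also ended the 1.2-fold calls of Zcwpw1 and Rpa2, and Rad51ap1 and Eme1 passed 1.2-fold on the lower side, Eme1 also with either smaller pseudocount and either other rescaling. The minimum of 5 RPKM left 5 members and 0 at least 1.2-fold higher, because Mei1 was not among them. Smaller pseudocounts brought Mei1 to 0.42 and 0.44 on the log2 scale and Rad51d past 1.2-fold. No paired analysis was possible because each genotype has 1 library. Depth limits the low genes most: members held 142 to 8319 reads per kilobase.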
